A study of Mus musculus with 6 samples.

Results

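Homer1, Homer2 and Homer3 form the mouse family of Homer scaffold proteins, and Niban1 (older name Fam129a) is a stress-inducible cytoplasmic protein. Here they were followed on expression arrays of sorted early thymocytes, in wild-type cells and in cells labelled as E2A deficient. Every probe set that the array annotation assigns to 1 of these 4 genes and to no other gene was taken, which gave 12 of the 45037 probe sets beside controls and 4 of the 18193 genes: 6 for Homer1, 3 for Homer2, 1 for Homer3 and 2 for Niban1. The genes were chosen by their measured log2 difference between the groups, since Homer2 and Niban1 lay among the genes with the largest rises in E2A-deficient cells. Homer1 and Homer3 are the other members of the Homer family. The differences of the 4 genes between the groups are therefore given as a description, with no test.

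The series holds 3 wild-type arrays and 3 E2A-deficient ones, each on the FVB strain background and each from cells sorted out of fetal thymus as DN2. DN2 thymocytes lack CD4 and CD8 and are at the step at which progenitors commit to the T lineage. E2A is the pair of E proteins encoded by Tcf3, transcription factors that bind the DNA motif called the E-box. The study was set up to find genes that depend on E2A in developing T cells. The labels give neither the allele behind the deficiency, nor the age of the fetuses, nor whether replicates came from separate animals, so the spread between arrays may be partly technical. The deposited values were 1 linear intensity per probe set and array, a brightness without a unit. In bulk RNA of this kind, fewer cells that express a gene and less RNA per cell cannot be told apart.

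Homer proteins carry an EVH1 domain near their N-terminus, which binds proline-rich stretches of other proteins. Among these ligands are metabotropic glutamate receptors, IP3 receptors and ryanodine receptors, which release calcium from internal stores, TRPC channels and the Shank scaffolds of synapses. Long Homer forms assemble through a C-terminal coiled coil and so tie these ligands together, and a short Homer1 form lacks the coil and works against the long ones. Homers are best known from neurons and muscle, and in T cells Homer2 and Homer3 have been described to bind the transcription factor NFAT and to compete with its activating phosphatase calcineurin. Niban1 is induced by stress of the endoplasmic reticulum, and its loss alters the phosphorylation of the translation regulators eIF2alpha and 4E-BP1.

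The labelled genotype and cell type were checked first. Tcf3 was lower in E2A-deficient cells on its brightest probe set, with 236, 229 and 281 against 477, 421 and 414 in wild-type cells, and so were both further Tcf3 probe sets. The labels do not say how Tcf3 was altered, so these probe sets may lie outside the altered part. Array medians were between 77.5 and 79.0, and log2 values of all probe sets correlated at 0.984 to 0.990 within a group and at 0.975 to 0.984 across the groups. Of 9 measured markers of early T-lineage cells, 9 lay above the upper quartile of all values (134) in wild-type and 8 in E2A-deficient cells. Levels within the list differed between the groups: 3 of the 9 fell and 1 rose by limma at an adjusted p under 0.05, or 44.4% against 3.46% of all genes. The surface marker Thy1 went from 370 to 146, the receptor gene Notch1 from 2419 to 885 and the CD3 chain gene Cd3e from 356 to 116, log2 changes of -1.32, -1.46 and -1.60 (limma adjusted p of 0.00158, 0.00215 and 0.000200). The T-lineage transcription factor gene Gata3 went from 258 to 709, a log2 change of 1.45 (limma adjusted p = 0.00215). The T-cell co-receptor genes Cd4, Cd8a and Cd8b1 stayed below that quartile in both groups. Neuronal and skeletal muscle markers, 6 of each, were below it too, with neuronal sums of 433 to 434 on wild-type and 410 to 435 on E2A-deficient arrays, and muscle sums of 463 to 494 and 500 to 505. Of the myeloid, mast, NK and dendritic cell lists, 1 marker each lay above that quartile in both groups. These were Mpo (means of 907 in wild-type and 1036 in E2A-deficient cells), Cpa3 (1104 and 1175), Nkg7 (970 and 1097) and H2-Aa (151 and 161). The B-lineage gene Cd79b did so in wild-type cells only (140).

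Besides these T-lineage markers, 3 readings moved with genotype or split the arrays, and they stand beside every result that follows. The signal ratio of the 5-prime to the 3-prime beta-actin control, a measure of RNA integrity and amplification, was 0.104, 0.162 and 0.0981 on the wild-type and 0.165, 0.160 and 0.149 on the E2A-deficient arrays. Of the wild-type arrays, only replicate 2 lay within the range of the E2A-deficient ones. Xist, which is transcribed from the inactive X chromosome of female cells, read 3055, 4456 and 58.7 on the wild-type arrays and 1901, 1247 and 2154 on the E2A-deficient arrays. Wild-type replicate 3 was thus the only array with Xist below the array medians. Markers of innate lymphoid cells summed to 610 to 719 on wild-type and 1938 to 2257 on E2A-deficient arrays over 6 measured genes, of which 3 rose (Icos, Rora and Zbtb16; limma adjusted p under 0.05). The effector cytokine genes of that list, Il5 and Il13, were below the median of all values (78.4) in both groups. Whether innate lymphoid cells were present was not tested. Nor was the part of such cells, or of the shift in T-lineage markers, in the values of the 4 genes.

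Because E2A acts through E-boxes, the DNA before the annotated starts of the 4 genes was read for them. The sequences come from the RefSeq promoter table of build GRCm38.p6, which held all 4 genes with 6 starts in all. The starts of Homer2 and Niban1, the 2 genes higher in E2A-deficient cells, are shown as the 250 bases before each start, 5′ to 3′ on the strand of the gene, with every E-box (CANNTG, a motif that reads as CANNTG on both strands) in capitals. The first Homer2 start is at the outer end of the gene, chr7:81706926-81707175 on the minus strand. The second lies inside the gene, chr7:81692966-81693215 on the minus strand, and the Niban1 window is chr1:151571123-151571372 on the plus strand.
Homer2 first start: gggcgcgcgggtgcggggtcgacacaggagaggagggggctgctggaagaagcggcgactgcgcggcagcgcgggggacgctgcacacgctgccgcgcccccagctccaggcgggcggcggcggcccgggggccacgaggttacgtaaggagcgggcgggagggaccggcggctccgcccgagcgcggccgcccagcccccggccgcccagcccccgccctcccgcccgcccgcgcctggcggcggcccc
Homer2 second start: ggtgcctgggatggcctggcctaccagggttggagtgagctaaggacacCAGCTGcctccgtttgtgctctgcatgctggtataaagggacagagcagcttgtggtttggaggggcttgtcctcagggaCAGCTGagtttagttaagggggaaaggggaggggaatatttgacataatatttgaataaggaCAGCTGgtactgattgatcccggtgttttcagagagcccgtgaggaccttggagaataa
Niban1 start: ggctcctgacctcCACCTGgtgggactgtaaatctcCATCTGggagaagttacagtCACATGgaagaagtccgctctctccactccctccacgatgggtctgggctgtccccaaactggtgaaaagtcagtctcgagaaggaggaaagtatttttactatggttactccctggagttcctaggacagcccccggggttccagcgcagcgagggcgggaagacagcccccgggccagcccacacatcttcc

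The outer Homer2 window held 0 E-boxes in a stretch of 83.2% G and C, against a median of 52.4% over the 32851 windows of the table. The inner Homer2 window held 3 E-boxes, and all 3 had the form CAGCTG, the first bases of which lay 201, 121 and 59 bases before the start. CAGCTG occurred at least once in 13.0% of all windows, and 0.119% of them held 3 or more. Any 3 or more E-boxes were less rare, at 12.2% of windows. The Niban1 window held 3 E-boxes of different forms, starting 237, 214 and 194 bases before the start. The one farthest from the start, CACCTG, was found on either strand in 17.2% of all windows of the table. The middle one of the row of capitals, CATCTG, was found on either strand in 14.4% of them. Homer3 had 1 E-box, the first Homer1 start 1 and the second Homer1 start 5, a number reached by 1.15% of windows. Over the table, 66.2% of windows held an E-box, so such a match is a description of the letters and not of binding. The annotation does not say from which Homer2 start the RNA on the arrays came.

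**Figure D1:**
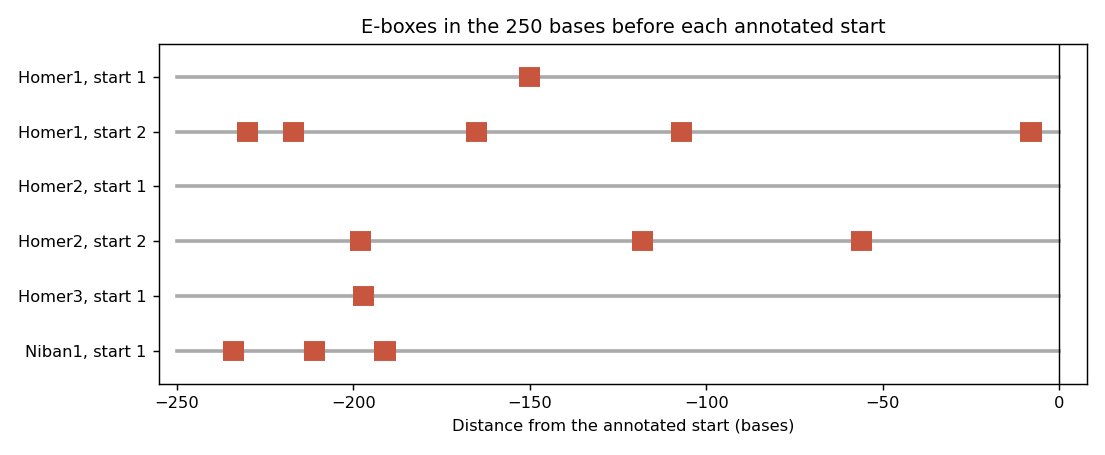
Position of each E-box (coloured blocks) in the 250 bases before the 6 annotated starts of the 4 genes, with the distance from the start in bases on the horizontal axis and 1 row per start. The inner Homer2 start has 3 blocks and the outer one has none, while the 3 blocks of Niban1 lie at the far end of the window.

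Homer2 was near the array median in wild-type cells and bright in E2A-deficient cells. Its brightest probe set, 1424367_a_at, read 67.6, 76.1 and 91.2 on the wild-type arrays and 509, 844 and 570 on the E2A-deficient arrays. The groups did not overlap, and the lowest E2A-deficient array was 5.59 times the highest wild-type array. The means were 78.3 ± 12.0 and 641 ± 179 (SD, n = 3 per group), a log2 difference of 2.99 (SE 0.25) on the log2(intensity + 1) scale, or 7.96-fold. This difference was the third highest of the 18193 genes, each represented by its brightest probe set. Among E2A-deficient arrays, replicate 2 stood highest, at 10.8 times the wild-type mean against 6.51 and 7.28 times in replicates 1 and 3.

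The other 2 Homer2 probe sets went the same way with smaller differences. Probe set 1457671_at read 65.9, 63.0 and 72.5 in wild-type and 118, 153 and 125 in E2A-deficient cells, a log2 difference of 0.96 (SE 0.13). It too was highest in E2A-deficient replicate 2. Probe set 1436110_at read 69.9, 66.0 and 65.2 against 87.3, 80.2 and 73.6, a log2 difference of 0.26 (SE 0.076), and here E2A-deficient replicate 1 was highest. In each of the 3 probe sets the groups did not overlap. Over all probe sets, 10.1% had all 3 E2A-deficient arrays above all 3 wild-type arrays and 6.79% had them all below. Since the comparison chose these genes, nothing is read from the count. The lowest of all deposited values was 41.4, and folds of probe sets as dim as these in wild-type cells may be compressed, which was not tested.

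Niban1 was higher in E2A-deficient cells on both of its probe sets. The brighter one, 1454942_at, read 130, 108 and 126 on the wild-type arrays and 449, 464 and 442 on the E2A-deficient arrays. The lowest E2A-deficient value was 3.40 times the highest wild-type value. The group means were 122 ± 11.6 and 452 ± 11.1 (SD, n = 3 per group), a log2 difference of 1.89 (SE 0.084), or 3.70-fold. The E2A-deficient arrays lay close together, with the highest 1.05 times the lowest, whereas for Homer2 on 1424367_a_at that ratio was 1.66. The second probe set, 1422567_at, read 82.2, 89.9 and 89.6 against 201, 199 and 256, a log2 difference of 1.31 (SE 0.12). There the third E2A-deficient replicate was highest, while on 1454942_at it was the lowest of the 3.

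Homer3, the other Homer described to bind NFAT in T cells, was read by 1 probe set, 1424859_at. It gave 165, 187 and 182 in wild-type and 169, 131 and 153 in E2A-deficient cells. The groups overlapped, since E2A-deficient replicate 1 lay above wild-type replicate 1. The means were 178 ± 11.7 and 151 ± 19.0 (SD, n = 3 per group), a log2 difference of -0.24 (SE 0.12). Without E2A-deficient replicate 2, its lowest array, the difference was -0.14.

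Homer1, which makes the long and short forms that oppose each other, had 6 probe sets, and on each of them the groups overlapped. Its brightest, 1437363_at, read 119, 104 and 98.8 in wild-type and 123, 101 and 111 in E2A-deficient cells. Its log2 difference was 0.06 (SE 0.11), and the sign turned without wild-type replicate 3 (-0.00062) or E2A-deficient replicate 1 (-0.017), and also when the 6 probe sets were averaged (-0.024). The log2 differences of the 6 lay between -0.12 and 0.06, with 3 above and 3 below 0. All 36 Homer1 values lay below the upper quartile of all values, and 3 of the 6 probe sets were below the array median on every array. The annotation does not tie these probe sets to the long or the short form.

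**Figure D2:**
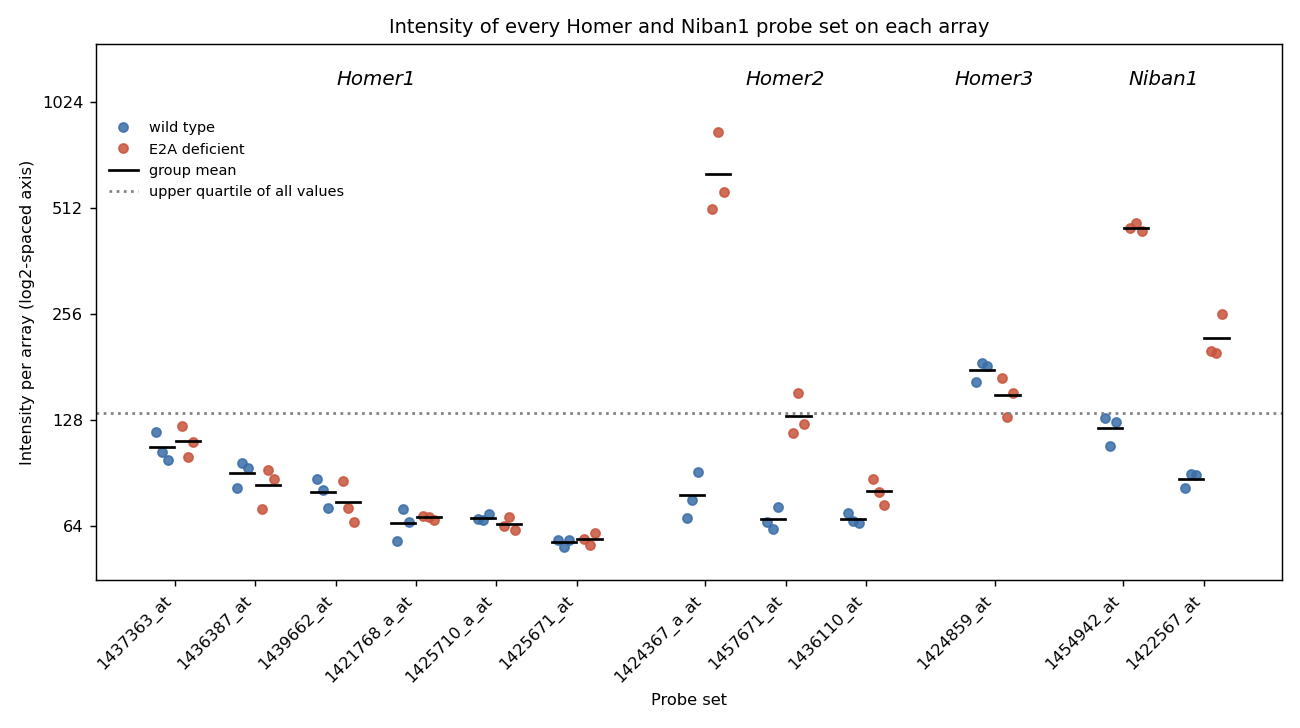
Intensity of each of the 12 probe sets (horizontal axis) on each array, on a log2-spaced axis, with wild-type arrays in blue, E2A-deficient arrays in red, group means as black bars and the upper quartile of all values, 134, as a dotted line. The 3 Homer2 and 2 Niban1 probe sets have separate groups with E2A-deficient arrays higher, and the 6 Homer1 and 1 Homer3 probe sets have groups that overlap.

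Set against all 45037 probe sets, whose 1st and 99th percentiles of the log2 difference were -0.45 and 0.57, the 7 Homer1 and Homer3 probe sets and the Homer2 probe set 1436110_at lay inside that span. The other 4 lay above it. The value of Homer2 depended on the probe set taken. The mean over its 3 probe sets gave a log2 difference of 1.40, against 2.99 for the brightest. Without 1424367_a_at, whose name marks it as matching several transcripts of a gene, it was 0.96.

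**Figure D3:**
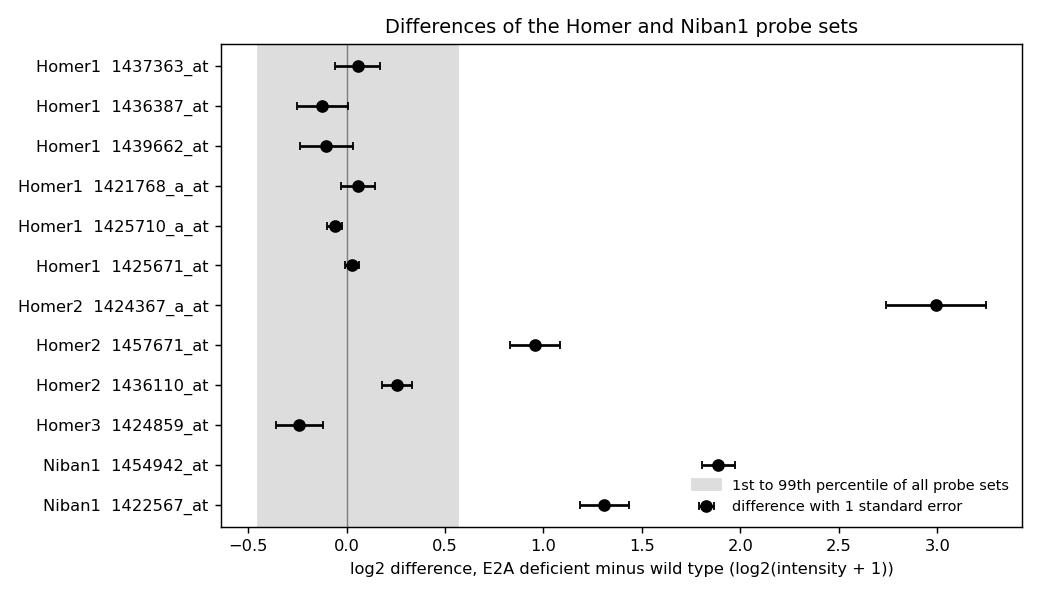
Log2 difference of E2A-deficient minus wild-type cells (points, horizontal axis) with 1 standard error over 3 arrays per group for each of the 12 probe sets, and in grey the span from the 1st to the 99th percentile of all probe sets, -0.45 to 0.57. Both Niban1 points and 2 of the 3 Homer2 points lie to the right of the grey span.

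The Homer2 and Niban1 differences were also read beside the 2 technical measures. On wild-type replicate 2, whose beta-actin ratio of 0.162 lay within the E2A-deficient range, Homer2 was at 76.1 and Niban1 at 108. Both genes were chosen by this group difference, and for both every wild-type array lay below every E2A-deficient array. With the ratio as a covariate the log2 differences were 3.04 for Homer2 and 2.02 for Niban1. With log2 Xist as a covariate they were 3.05 and 1.91. On wild-type replicate 3, the array with Xist below the array medians, Homer2 was at 91.2 and Niban1 at 126. The part of either measure in the differences was not tested.

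For each of the 4 genes the 5 genes with the most similar values over the 6 arrays were listed by Pearson correlation, each gene read by its brightest probe set. These correlations are a description over 6 arrays that share the 2 groups, and for a gene with separate groups the group difference sets most of the value. For Homer2 they were Icos (0.997), Zfp612 (0.996), Cxcr6 (0.995), Jag1 (0.994) and Rnf128 (0.993), out of 178 genes above 0.95. With each array taken as its deviation from its group mean, Icos gave 0.920 and Rnf128 0.795, with the other 3 between. The correlation by which genes were listed includes these deviations, so such values are no separate check. For Niban1 they were Sgk1 (0.998), Lrrc74b (0.997), S100a4 (0.996), Dip2b (0.996) and H2-Oa (0.996), out of 238 genes above 0.95, and their deviations gave 0.398 to 0.964. Lrrc74b was dim and its log2 difference was 0.05. For Homer1 the list was Egfem1, Rufy1, Nap1l1, Zfp941 and Rhbdd2 (0.985 to 0.995), out of 43 genes above 0.95. For Homer3 it was Samd14, Fnip1, Rheb, 6030440G07Rik and Zfp367 (0.975 to 0.991), out of 14. Egfem1, Zfp941 and 6030440G07Rik were dim, with wild-type means of 57.7, 69.9 and 56.9. Of the Homer2 list, Zfp612, Cxcr6, Jag1 and Rnf128 were dim in wild-type cells, with means of 53.8, 53.4, 59.5 and 72.2. Their means in E2A-deficient cells were 83.9, 84.1, 149 and 147. Homer2 and Niban1 gave 0.985 with each other, but 0.167 as deviations from the group means.

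The RNA of the binding partners of Homer proteins was tested next, in a linear model of all 18193 genes (limma, two-sided, Benjamini-Hochberg adjusted). Across all genes 3.46% passed at an adjusted p under 0.05, 630 in number, of which 437 were higher (2.4%) and 193 lower (1.06%) in E2A-deficient cells (360 higher and 257 lower after quantile normalization). In the list of Homer ligands and other EVH1 proteins 21 of 25 genes were measured, and 1 of them passed, or 4.76%. An unadjusted p under 0.05 was reached by 4 of the 21 (19.0%, against 15.7% of all genes). The others were not analysed here. The median log2 difference of the list was 0.0019, against 0.015 over all genes. The receptors and channels that Homers tether gave 9 measured genes, with differences between -0.17 and 0.09, of which 0 passed by limma and 0 had an unadjusted p under 0.05. Among them the IP3 receptor genes Itpr2 (174 ± 22.6 against 184 ± 14.3, SD, n = 3) and Itpr3 (162 ± 6.86 against 167 ± 1.66) differed by less than the SD of their wild-type arrays. The synaptic Shank1 and Shank3 and the partners Dnm3 and Agap2 were near the array median in both groups, with differences from -0.07 to 0.0019.

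The 1 gene of this list that rose was Evl, which encodes an actin-regulating protein of the Ena/VASP family with an EVH1 domain of its own. Its mean was 175 ± 12.2 in wild-type and 282 ± 19.5 in E2A-deficient cells (SD, n = 3), and the log2 change was 0.69 (SE 0.078) with a limma adjusted p of 0.00444. Its other 3 probe sets gave 0.14 to 0.20, and without probe sets shared between transcripts the call was lost (0.20, limma adjusted p = 0.373). The related Vasp (0.28, limma adjusted p = 0.0834) and the Wiskott-Aldrich protein gene Was (0.29, limma adjusted p = 0.159) did not pass. Nor did Wasl (-0.37) or the Ras pathway inhibitors Spred1, Spred2 and Spred3 (-0.11 to 0.05).

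Genes of store-operated calcium entry, calcineurin and NFAT gave 29 measured of 32, and the others were not analysed here. Of these, 2 rose and 1 fell, or 10.3% against the 3.46% of all genes, with a median log2 difference of 0.011. An unadjusted p under 0.05 was reached by 10 of the 29 (34.5%, against 15.7% of all genes). In wild-type cells 16 of the 29 lay above the upper quartile of all values. With only genes brighter than the median gene kept, 698 genes were called in all and 3 in this list. The share called over all genes is therefore below the share over the brighter genes. Some genes of the list were left out of that fit as well, Nfatc4 and Ppp3cc among them. The shares of the list and of all genes, adjusted or not, thus do not compare genes of like brightness. From these shares no excess is read. Stim2, a sensor of calcium in the endoplasmic reticulum, rose by 0.97 (SE 0.13, limma adjusted p = 0.0115), with means of 194 ± 27.9 and 379 ± 56.1 (SD, n = 3). Its other probe set gave 0.08, and the mean of both 0.52. Camk4, a calmodulin-dependent kinase of T cells and neurons, rose by 1.21 (SE 0.17, limma adjusted p = 0.0110), with means of 79.2 ± 7.70 and 188 ± 43.0 (SD, n = 3). The other 4 Camk4 probe sets gave between -0.011 and 1.75, and the mean of all 5 gave 0.59. Plcg1, the phospholipase that makes IP3 downstream of the T-cell receptor, changed by -0.61 (SE 0.12, limma adjusted p = 0.0392), with means of 418 ± 62.1 and 272 ± 21.4 (SD, n = 3). Its other 2 probe sets gave -0.12 and -0.08, and the mean of all 3 gave -0.27. Its call held in 8 of 18 alternatives, in which its limma adjusted p was 0.0127 to 0.223. It was lost without wild-type replicate 1 or 3 and without any 1 of the E2A-deficient replicates. With all arrays kept, it was lost with the mean of its probe sets, a pseudocount of 32 and a replicate block. The beta-actin ratio or log2 Xist as a covariate did the same.

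The genes of the proteins that Homer2 and Homer3 are described to act on did not pass at the level of RNA. Binding and competition between the proteins were not measured. Of the NFAT genes, Nfatc1 (204 ± 12.2 against 200 ± 20.8, SD, n = 3), Nfatc2 (-0.19), Nfatc3 (0.14) and Nfatc4 (-0.02) gave limma adjusted p-values between 0.262 and 0.951. The calcineurin genes Ppp3ca (0.36, limma adjusted p = 0.0638), Ppp3cb (-0.10), Ppp3cc (0.07) and Ppp3r1 (0.24) did not pass either. Ppp3ca passed with the mean of its probe sets (0.37, limma adjusted p = 0.0129). In that setting the calcium list had 4 calls, among them the calcium pump gene Atp2b1 (limma adjusted p = 0.00517, against 0.386 in the main fit). The calcium sensor Stim1 (0.22) and the channel gene Orai1 (0.01) did not pass. Nor did the NFAT-responsive calcineurin inhibitor Rcan1 (-0.28, limma adjusted p = 0.186).

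Around Niban1, the list of its family and of stress-response genes had 34 of 35 genes measured (Eif2s1 was not analysed here), of which 1 rose and 1 fell. That was 5.88% against the 3.46% of all genes, and the median log2 difference was -0.0075. An unadjusted p under 0.05 was reached by 11 of the 34 (32.4%, against 15.7% of all genes). Here too many genes were bright, with 19 of the 34 above the upper quartile of all values in wild-type cells. With only genes brighter than the median gene kept, 2 of the 698 called genes were in this list. Some list genes, among them Atf3 and Ddit4, were left out of that fit. The shares of this list and of all genes, adjusted or not, thus do not compare genes of like brightness. No excess is read from them. Niban2, a relative of Niban1, rose by 0.83 (SE 0.098, limma adjusted p = 0.00532), with means of 106 ± 11.9 and 188 ± 13.6 (SD, n = 3). The third relative Niban3, known from B cells, was at 194 ± 20.5 and 140 ± 27.6 (-0.48, limma adjusted p = 0.140) and did not pass, except with E2A-deficient replicate 2 left out (-0.64, limma adjusted p = 0.0376). Xbp1, the transcription factor spliced in the unfolded protein response, changed by -0.61 (SE 0.081, limma adjusted p = 0.00886), with means of 1380 ± 71.2 and 904 ± 80.4 (SD, n = 3). Its other 3 probe sets gave -0.69 to -0.33, and without probe sets shared between transcripts the call was lost (-0.33, limma adjusted p = 0.111).

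The other 32 measured genes of the list did not pass. With the mean of their probe sets, 3 of them did: Atf6, a stress sensor of the endoplasmic reticulum (0.22, limma adjusted p = 0.0383), the chaperone gene Hsp90b1 (0.40, limma adjusted p = 0.0301) and Herpud1, of the degradation pathway of the endoplasmic reticulum (-0.24, limma adjusted p = 0.0477). Without wild-type replicate 3, Herpud1 (-0.42, limma adjusted p = 0.0338) and the amino acid transporter gene Slc7a5 (-0.48, limma adjusted p = 0.0328) passed, as both did with log2 Xist as a covariate. With wild-type replicate 1 left out, Hsp90b1 gave 0.41 and was called (limma adjusted p = 0.0482). Atf4, the transcription factor at the centre of that response, read 1517 ± 301 and 1497 ± 197 (SD, n = 3). Its target Ddit3 was at 116 ± 19.3 and 127 ± 17.5, and the kinase gene Eif2ak3 at 122 ± 21.5 and 142 ± 18.5. The chaperone Hspa5 was at 2730 ± 374 and 3198 ± 64.1 (0.24, limma adjusted p = 0.315). The 4 kinase genes of eIF2alpha had differences between -0.10 and 0.22, and Eif4ebp1, which encodes 4E-BP1, gave -0.06. In a fit that also held the beta-actin ratio, Evl, Stim2, Camk4, Plcg1, Niban2 and Xbp1 kept their sign and did not pass (limma adjusted p from 0.0645 to 0.223). All genes called then numbered 123 in place of 630.

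**Figure D4:**
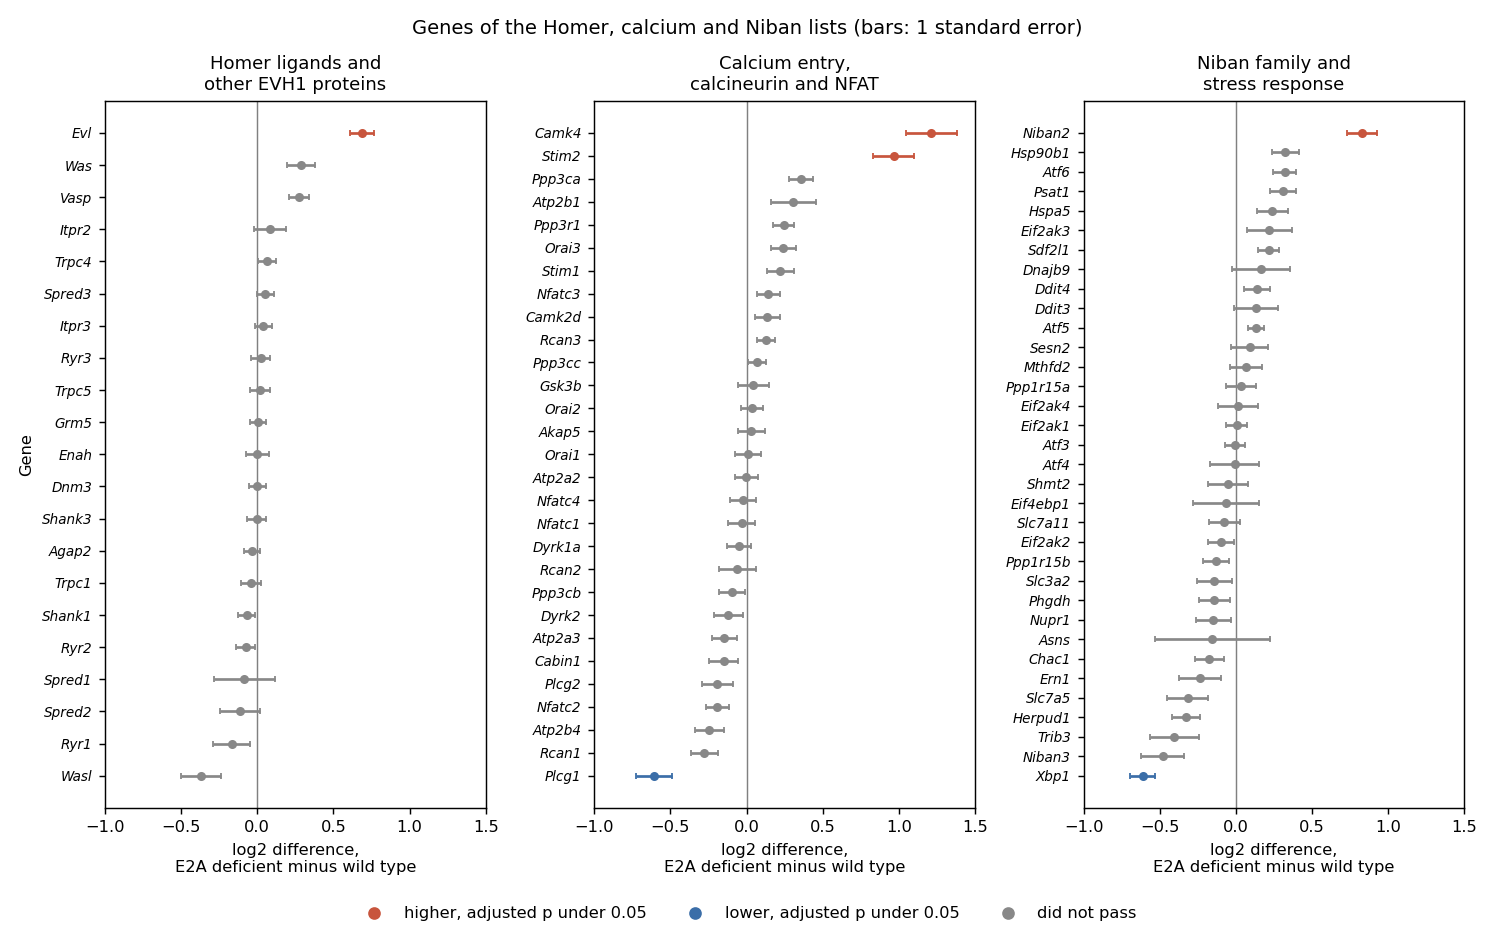
Log2 difference of E2A-deficient minus wild-type cells (points, horizontal axis) with 1 standard error from the limma fit for the 84 measured genes of the 3 lists, ordered by difference. Red points are higher and blue points lower at a limma adjusted p under 0.05: Evl, Camk4, Stim2 and Niban2 are red, and Plcg1 and Xbp1 are blue.

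The chromosomal surroundings of the 4 genes were read from the 5 measured genes on either side of each, 40 in all, in the order of starts in a RefSeq gene table. By limma 0 of the 40 passed and 5 had an unadjusted p under 0.05 (12.5%, against 15.7% of all genes). Next to Homer2, Whamm gave 0.0023 and 3110040N11Rik 0.18, with 90.4 ± 2.05 against 90.6 ± 4.77 (SD, n = 3) for Whamm. Next to Niban1, the Polycomb ubiquitin ligase gene Rnf2 gave 0.26 (limma adjusted p = 0.0971) and Edem3 0.33 (limma adjusted p = 0.344). Of the 10 neighbours of Niban1, 9 had a difference above 0, as had 56.5% of all genes, and their median was 0.15 against 0.015. Without wild-type replicate 2, Edem3 passed (0.50, limma adjusted p = 0.0392). Next to Homer1, Tent2 gave 0.20 and Jmy 0.05, and next to Homer3, Sugp2 gave -0.12 and Ddx49 0.09. The neighbours of Homer2 lay between -0.43 (Tm6sf1) and 0.19 (Btbd1).

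**Figure D5:**
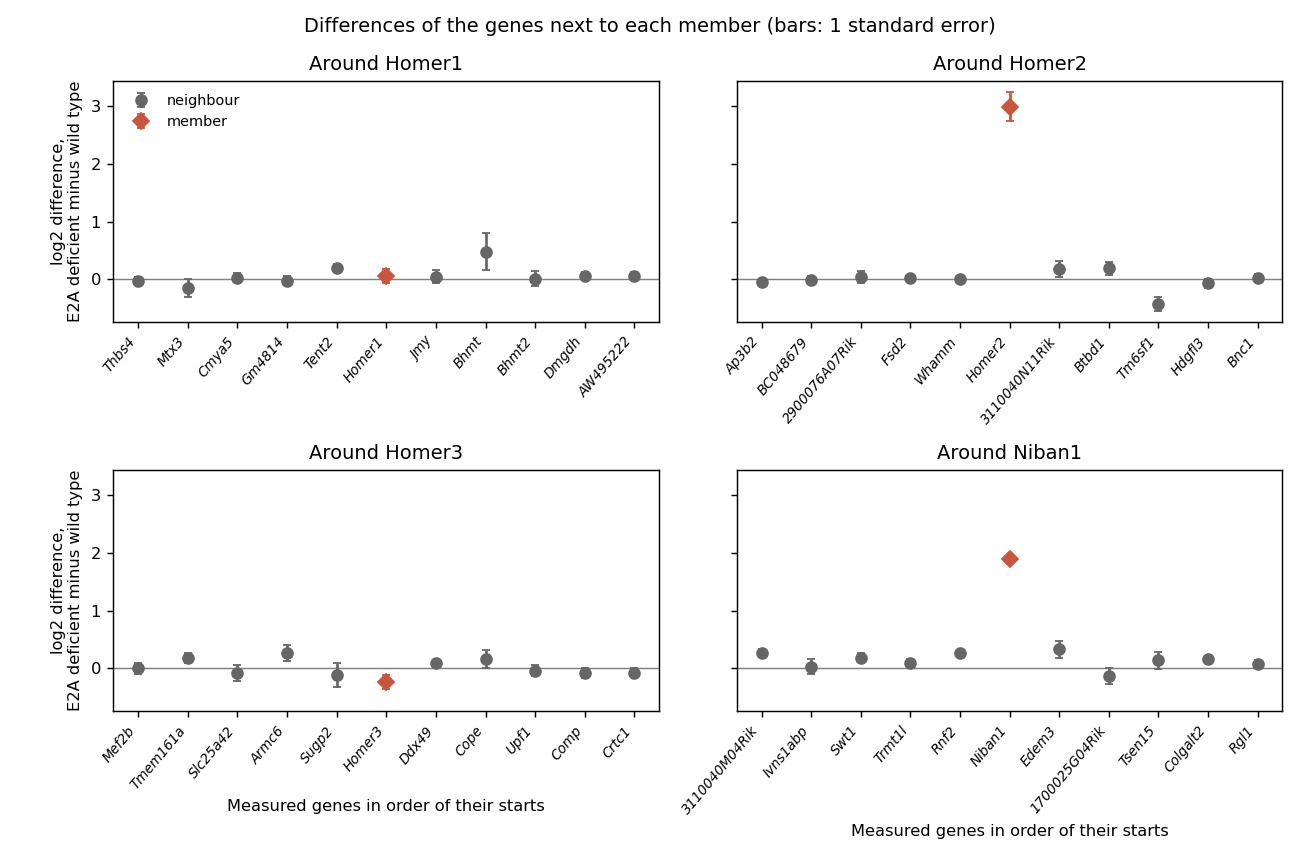
Log2 difference of E2A-deficient minus wild-type cells (vertical axis) with 1 standard error for each of the 4 genes (diamond) and the 5 measured genes on either side of it (circles), in order of their starts. The diamonds of Homer2 (2.99) and Niban1 (1.89) stand above all of their neighbours, the highest of which is 0.33 (Edem3). Since these 2 genes were chosen for their large rise, nothing is read from that order.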

How the data were processed

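The authors deposited 1 linear intensity per probe set and array for 6 Affymetrix mouse arrays. The submitters' processing notes name only RMA, a method of background correction, quantile normalization and probe summary. Its version, any further scaling and the genome build are not given in the sources used here. Per the labels' protocols, RNA was amplified in repeated rounds of in vitro transcription, which favours 3' ends. Log2(intensity + 1) was analysed with no further normalization and no filter, so all 12 member probe sets were kept. The 64 control probe sets were left out, 34945 probe sets named 1 gene, 932 several and 9160 none, and each of 18193 genes took its brightest probe set. Groups were compared with limma 3.58.1 (R 4.3.3), which was tested on simulated data. Standard errors of the member probe sets come from their own arrays, those of other genes from limma. The number of arrays limits the precision.

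The members and lists were chosen with earlier results of these data known. Named genes were all member probe sets, the called genes of the 3 pathway lists (or the 3 smallest p), a fixed group of 21 calcium, NFAT, EVH1 and stress genes, the nearest and any called neighbours, and the 5 genes most like each member. Genes named outside that rule, among them Wasl, the Spred and Shank genes, Dnm3, Agap2, Nfatc4, Ppp3cc, Rcan1, Atp2b1, Eif4ebp1, Hsp90b1, Herpud1, Slc7a5, Tm6sf1 and Btbd1, were chosen after their values were seen. Other marker lists covered B, myeloid, erythroid, dendritic, mast, NK, mature T, epithelial and mesenchymal or endothelial cells: of their 50 measured genes, Lyz2 fell and the others did not pass. Plots were made in matplotlib 3.10.9 under Python 3.11.15.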

Additional observations from a re-analysis of the deposited data

How the results depend on the processing

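In 18 alternative settings the log2 differences of Homer2, Niban1 and Homer3 kept their sign, and that of Homer1, near 0, did not. With 1 array left out in turn they were 2.78 to 3.14 for Homer2, 1.81 to 1.94 for Niban1, -0.32 to -0.14 for Homer3 and -0.017 to 0.13 for Homer1. Homer2 moved by more than the spread between replicates with the mean of its probe sets (1.40), without shared probe sets (0.96) and with a pseudocount of 32 (2.58). Niban1 did so with the mean (1.60), that pseudocount (1.66) and the beta-actin ratio as a covariate (2.02). That covariate left 123 genes called in all, with 0 in the Homer, 0 in the calcium and 0 in the Niban list. Without shared probe sets the Homer list had 0 calls and the Niban list 0: Niban2 then had no value and Xbp1 did not pass (-0.33, limma adjusted p = 0.111). The Niban list had 5 calls with the mean of probe sets and 4 with log2 Xist as a covariate, and 2 to 4 with an array left out. The neighbours had 1 call with an intensity trend and robust variances (3110040M04Rik), 1 with the mean of probe sets (Tm6sf1) and 0 to 1 with an array left out. Leaving out an array gave 320 to 533 genes called: 401 without wild-type replicate 2, 405 without 3, and 338, 381 and 320 without E2A-deficient replicates 1, 2 and 3. Quantile normalization gave 360 higher and 257 lower genes in place of 437 and 193, and moved the median of all genes from 0.015 to 0.0043. The causes were not tested. Same-numbered arrays did not deviate together over all probe sets (correlations of 0.041, 0.041 and -0.036), which does not settle whether the numbers pair them. With the replicate block 459 genes were called, and the differences of the 4 genes were the same. The array number, and values near the lowest of the series, limit what dim probe sets can show.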
